A study of Mus musculus with 36 samples.

Results

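The mRNAs of 37 transcription factors that build and specify the neurons of the brain were followed through ribosome-protected fragments (RPFs) and RNA-seq of mouse brain. The genes were chosen by name, as factors known from cortical, striatal and cerebellar development, and all 37 were found among the 16614 genes of the count table. Brains came from C57BL/6 mice (WT) and from FMR1 KO mice, both at postnatal day 5. FMR1 encodes FMRP, the RNA-binding protein lost in fragile X syndrome. Each preparation pooled 10 brains, so a library averages over animals and over all cell types of the brain, and the knockout was present in every cell. Homogenates were sedimented through sucrose gradients, and RPFs were sequenced from the pellet, which holds the dense ribosome clusters of RNA granules, and from fraction 5/6, which holds lighter polysomes. RNA-seq was made from whole brain homogenate. A standard preparation (10 mM MgCl2) and a low nuclease preparation (2.5 mM MgCl2) were each sequenced with 3 libraries per genotype and library type, 36 in all. These preparations differed in salt and in nuclease treatment, and these cannot be told apart. Abundance is used for the level in pellet RPFs, occupancy is pellet RPFs against RNA-seq, and enrichment is pellet against fraction 5/6 RPFs.

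Transcription factors bind DNA and set which genes a cell transcribes. In the developing brain they act in relays: Sox2, Pax6 and Lhx2 hold progenitors, Eomes, the neurogenic differentiation (Neurod) factors, Sox4 and Sox11 carry cells through neurogenesis, and Tbr1, Fezf2, Satb1, Bcl11b and the Cux factors fix the identity of cortical projection neurons. Nuclear factor I proteins drive the switch to glia and neuronal maturation, and Mef2 proteins couple activity to synapse number. RPFs report where ribosomes sit on an mRNA and do not separate moving from stalled ribosomes.

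Standard RPF libraries held 6765065 to 33212827 counts in fraction 5/6 and 21710393 to 40174168 in the pellet, and RNA-seq libraries held 112249206 to 147216378. Cdk8 alone made up 36.7% to 63.4% of each standard RPF library and was left out of every total, so levels are given as CPM (counts scaled to a common library total) without Cdk8. The least covered of the 37 genes still had 92 counts in its poorest standard RPF library and 1316 in RNA-seq. Fmr1 served as a check of the labels. It measured 67.8, 67.1 and 64.6 CPM in the WT pellet and 4.93, 4.79 and 4.81 CPM in the FMR1 KO pellet. It measured 100.1, 68.6 and 3.17 CPM in WT fraction 5/6, so the library labelled WT fraction 5/6 replicate 3 sat at the knockout level, and the counts and tests that turn on it are also given without it. In the low nuclease preparation, 3 RNA-seq libraries (WT replicate 2, FMR1 KO replicates 2 and 3) had 81.5% to 85.0% of their counts in 10 genes. Summed neuronal markers were high in every standard library, at 5324 to 11313 CPM. Summed erythroid markers were 206 to 485 CPM in standard RNA-seq and 3.59 to 15.7 CPM in standard RPFs.

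In the standard preparation the factors as a group took a smaller share of RPFs than of RNA. They made up 0.770% ± 0.079 (SD, n = 3) of counts in WT RNA-seq, 0.397% ± 0.078 in WT fraction 5/6 and 0.384% ± 0.050 in the WT pellet. In FMR1 KO the shares were 0.840% ± 0.044 in RNA-seq, 0.521% ± 0.122 in fraction 5/6 and 0.380% ± 0.097 in the pellet. Without the library labelled replicate 3 (0.433%), WT fraction 5/6 had shares of 0.452% and 0.308%. The shares did not overlap between RNA-seq and RPFs in either genotype, but the median of all genes was also lower in the pellet by library totals, by -1.26 (log2) in WT and -1.16 in FMR1 KO. Under low nuclease the WT RNA-seq libraries not dominated by 10 genes had 0.680% and 0.625%, against 0.626% to 0.673% in WT fraction 5/6, and these overlap. The 1 such FMR1 KO library had 0.572%, below the 0.639% to 0.669% of FMR1 KO fraction 5/6. The low nuclease pellet lay below these RNA-seq libraries in both genotypes, at 0.512% to 0.604% in WT and 0.513% to 0.558% in FMR1 KO. Differences between whole libraries ran through nearly all of the genes together: in FMR1 KO pellet replicate 2 the level of 37 of 37 genes was the lowest of the 3 libraries, and in FMR1 KO fraction 5/6 replicate 3 it was the highest for 36 of 37. In WT fraction 5/6 replicate 2 it was the lowest for 36 of 37.

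**Figure D1:**
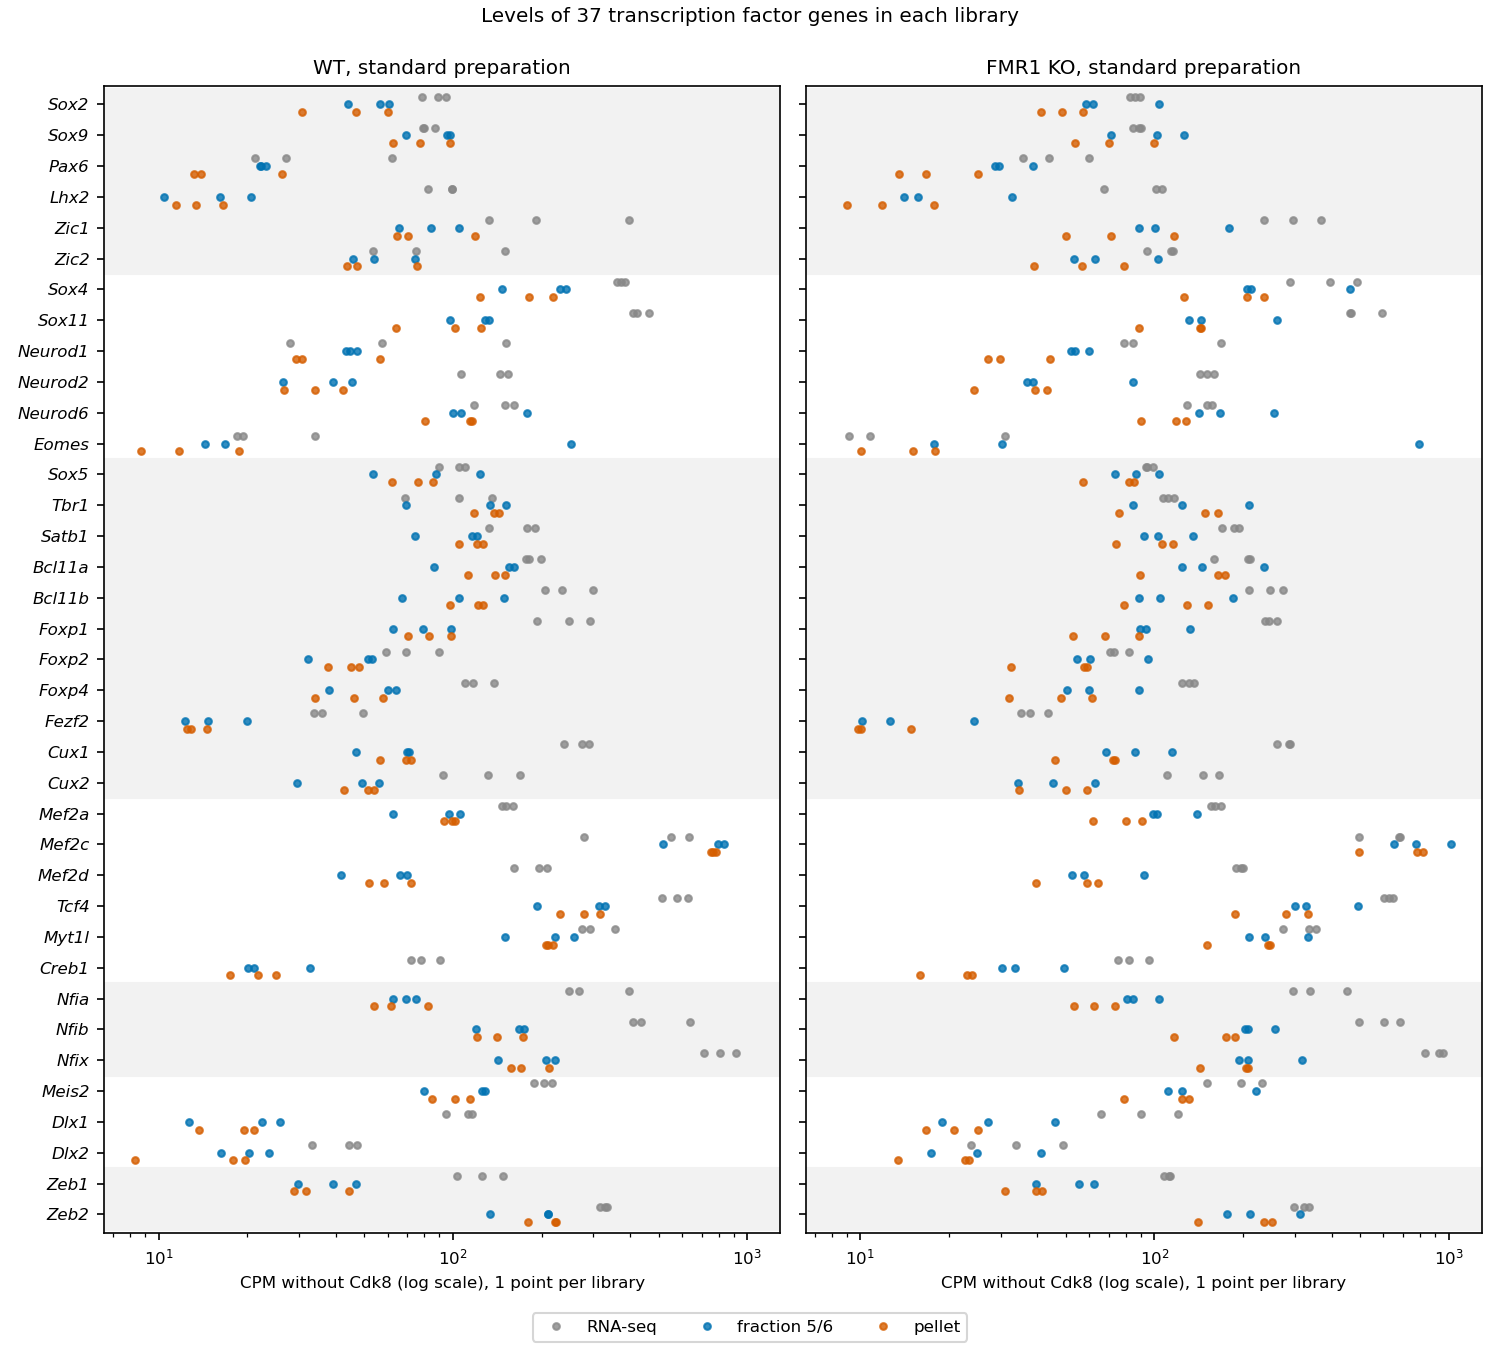
CPM without Cdk8 (log scale) of each gene in each library of the standard preparation, WT on the left and FMR1 KO on the right, with 1 point per library; grey is RNA-seq, blue fraction 5/6 and orange the pellet, and shading separates groups of genes by role. Mef2c stands highest in the pellet, at 751 to 782 CPM in WT, and Eomes has 1 fraction 5/6 library in each genotype far above the others, at 252 and 793 CPM.

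To compare levels between genes, CPM was divided by the length of the transcript listed for each gene (RPKM). Listed transcripts differ in how much untranslated sequence they hold. That of Tcf4 has 2192 nt, of which 2013 are coding, and that of Creb1 has 8364 nt, of which 984 are coding. The order and percentiles below therefore depend in part on which transcript is listed. Per length, Tcf4, a basic helix-loop-helix partner of the proneural factors that is mutated in Pitt-Hopkins syndrome, led the RNA of WT brain at 261 ± 27 RPKM (SD, n = 3). Nfib (151 ± 38 RPKM), Nfix (148 ± 19), Mef2c (137 ± 53) and Mef2d (107 ± 14) followed, and neighbours in that order overlapped. The lowest RNA levels were those of Eomes (6.73 ± 2.46 RPKM), Creb1 (9.59 ± 1.11), Pax6 (11.8 ± 7.1), Foxp2 (12.9 ± 2.8) and Sox5 (14.0 ± 1.4). The median gene of the 37 stood at the 87.1 percentile of all genes by RPKM in WT RNA-seq and at the 86.2 percentile in the WT pellet, so these are mostly well expressed mRNAs in both.

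The order changed at the top in the pellet. Mef2c, the activity-regulated MADS box factor of excitatory neurons, came first at 220, 215 and 211 RPKM in the 3 WT pellet libraries, a mean of 215 ± 4 RPKM. Tcf4 was next at 126 ± 20 RPKM, and every Mef2c library lay above every Tcf4 library. Zeb2 (53.4 ± 6.4 RPKM), a repressor with roles in interneuron migration and oligodendrocyte maturation, Neurod6 (48.3 ± 9.5), a marker of postmitotic pyramidal neurons, and Nfib (44.4 ± 8.2) followed within their spread of each other. The lowest pellet levels were those of Creb1 (2.56 ± 0.45 RPKM), Eomes (3.67 ± 1.44), Dlx1 (4.41 ± 0.93), Lhx2 (4.86 ± 0.89) and Pax6 (5.70 ± 2.34). RPFs come from coding sequence, and several of these mRNAs have long untranslated regions. Per kilobase of coding sequence, Mef2c again led the WT pellet at 540 ± 11 CPM, followed by Tcf4 at 137 ± 22 CPM.

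In WT RNA-seq, levels varied most between libraries for Neurod1, Pax6, Zic1 and Zic2. Zic1, Zic2, Pax6 and Neurod1 are all expressed by cerebellar granule neurons, among other cells. In WT RNA-seq Neurod1 measured 27.9, 57.4 and 152 CPM in replicates 1, 2 and 3, and Zic1 measured 133, 191 and 396 CPM. Pax6 (21.2, 27.0 and 62.3 CPM) and Zic2 (53.5, 75.1 and 151 CPM) were also highest in replicate 3. In FMR1 KO RNA-seq, replicate 2 was the highest for Neurod1 (168 against 78.9 and 84.8 CPM), Pax6 (59.8 against 35.8 and 43.7) and Zic1 (367 against 236 and 297), but not for Zic2 (114 against 94.0 and 115). The part that the content of each brain pool has in these levels was not tested, and fewer cells of a type and less RNA per cell cannot be told apart in bulk tissue. These genes also have the widest intervals in WT occupancy.

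Occupancy asks which mRNAs carry more pellet RPFs than their RNA level alone would give. Fold changes were fitted with edgeR's quasi-likelihood test after TMM normalization over all genes, with Benjamini-Hochberg adjustment over all genes tested. The scale bears on the direction. TMM brings the bulk of genes to about 0, where library totals alone leave the shift of the median gene given above. Under TMM, 10 of the 37 factors had higher and 11 lower occupancy in WT, beside 31.1% and 34.2% of all genes (65.3% in either direction). Scaled by library totals alone, 0 were higher and 30 lower, beside 8.78% and 67.6% of all genes under that scaling, so the changes below are relative to the bulk of genes. In FMR1 KO, 10 were higher and 16 lower, beside 31.8% and 35.2% of all genes (66.9% in either direction). By library totals these were 0 and 27, beside 7.95% and 62% of all genes. The median of the 37 log2 fold changes was 0.05 in WT and -0.15 in FMR1 KO, next to -0.10 and -0.07 over all genes. In WT 21 of the 37 passed, a share below that of all genes, and in FMR1 KO 26, a share above it, so the counts set the factors apart in no steady direction.

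The low nuclease preparation gave other counts. There 17 factors passed in WT, 14 higher and 3 lower, beside 52.1% of all genes, and 5 in FMR1 KO, beside 28.9%. Of the 21 called in standard WT, 4 had the other sign. Lhx2, Nfib (0.62) and Creb1 (0.67) passed as higher, and Myt1l had a value of -0.17. Without the dominated WT RNA-seq library Myt1l kept its standard sign. Of the 26 called in standard FMR1 KO, 8 had the other sign, none of which passed. These were Lhx2, Nfib (0.23), Creb1 (0.20), Fezf2 (0.40), Zic1 (0.25) and Foxp1 (0.12), lower in the standard, and Myt1l (-0.61) and Sox5 (-0.10), higher in the standard. The directions below are those of the standard preparation.

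The mRNAs with higher occupancy were led by Mef2c and Tbr1. Mef2c (chr13:83504034-83667080, plus strand, GRCm38) measured 1192, 1045 and 1205 normalised CPM in the WT pellet and 189, 377 and 415 in WT RNA-seq. The groups lay far apart, by 1.81 ± 0.29 (log2, SE; edgeR adjusted p = 0.00103). In FMR1 KO the pellet held 1046, 935 and 1037 normalised CPM and RNA-seq 460, 349 and 446, a log2 difference of 1.27 ± 0.16 (edgeR adjusted p = 0.00045). Tbr1 (chr2:61802930-61814114, plus strand), the T-box factor of deep-layer corticothalamic neurons, measured 219, 188 and 190 normalised CPM in the WT pellet and 46.6, 93.1 and 68.2 in WT RNA-seq. Its occupancy was 1.52 ± 0.24 in WT and 1.28 ± 0.16 in FMR1 KO (edgeR adjusted p = 0.001 and 0.000347). Sox5 (0.70 in WT, 0.74 in FMR1 KO), which controls the migration and identity of deep-layer neurons, and Neurod6 (0.68 and 0.73) also rose in both genotypes. Neurod6 no longer passed in WT without replicate 2 (log2 0.68, edgeR adjusted p = 0.078). Scaled by library totals alone, Sox5 and Neurod6 were lower in the pellet than in RNA-seq, at -0.44 and -0.46 in WT.

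Bcl11a, a zinc finger factor of deep-layer and sensory-area neurons (0.68 in WT, 0.64 in FMR1 KO), Myt1l, which represses non-neuronal genes in neurons (0.62 and 0.50), and Zeb2 (0.51 and 0.47) rose as well, Myt1l with the other sign in the low nuclease preparation. Satb1, a chromatin organiser of the CUT family (0.64 in WT), and Mef2a (0.52) passed the test in WT, and in FMR1 KO their values were 0.20 and 0.05. The reverse held for Foxp2, the forkhead factor linked to speech and expressed in deep layers and striatum (0.48 in FMR1 KO, 0.41 in WT), and Sox2 (0.30 and 0.20). Sox9, which specifies astrocytes and maintains neural stem cells, measured 118, 133 and 101 normalised CPM in the WT pellet against 53.7, 54.4 and 56.7 in WT RNA-seq, a rise of 1.09 ± 0.13, and rose by 0.85 ± 0.13 in FMR1 KO (edgeR adjusted p = 0.000204 and 0.00106). By library totals alone its values were -0.05 and -0.23. Summed astrocyte markers were 404 to 546 CPM in the WT pellet and 342 to 547 CPM in WT RNA-seq.

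**Figure D2:**
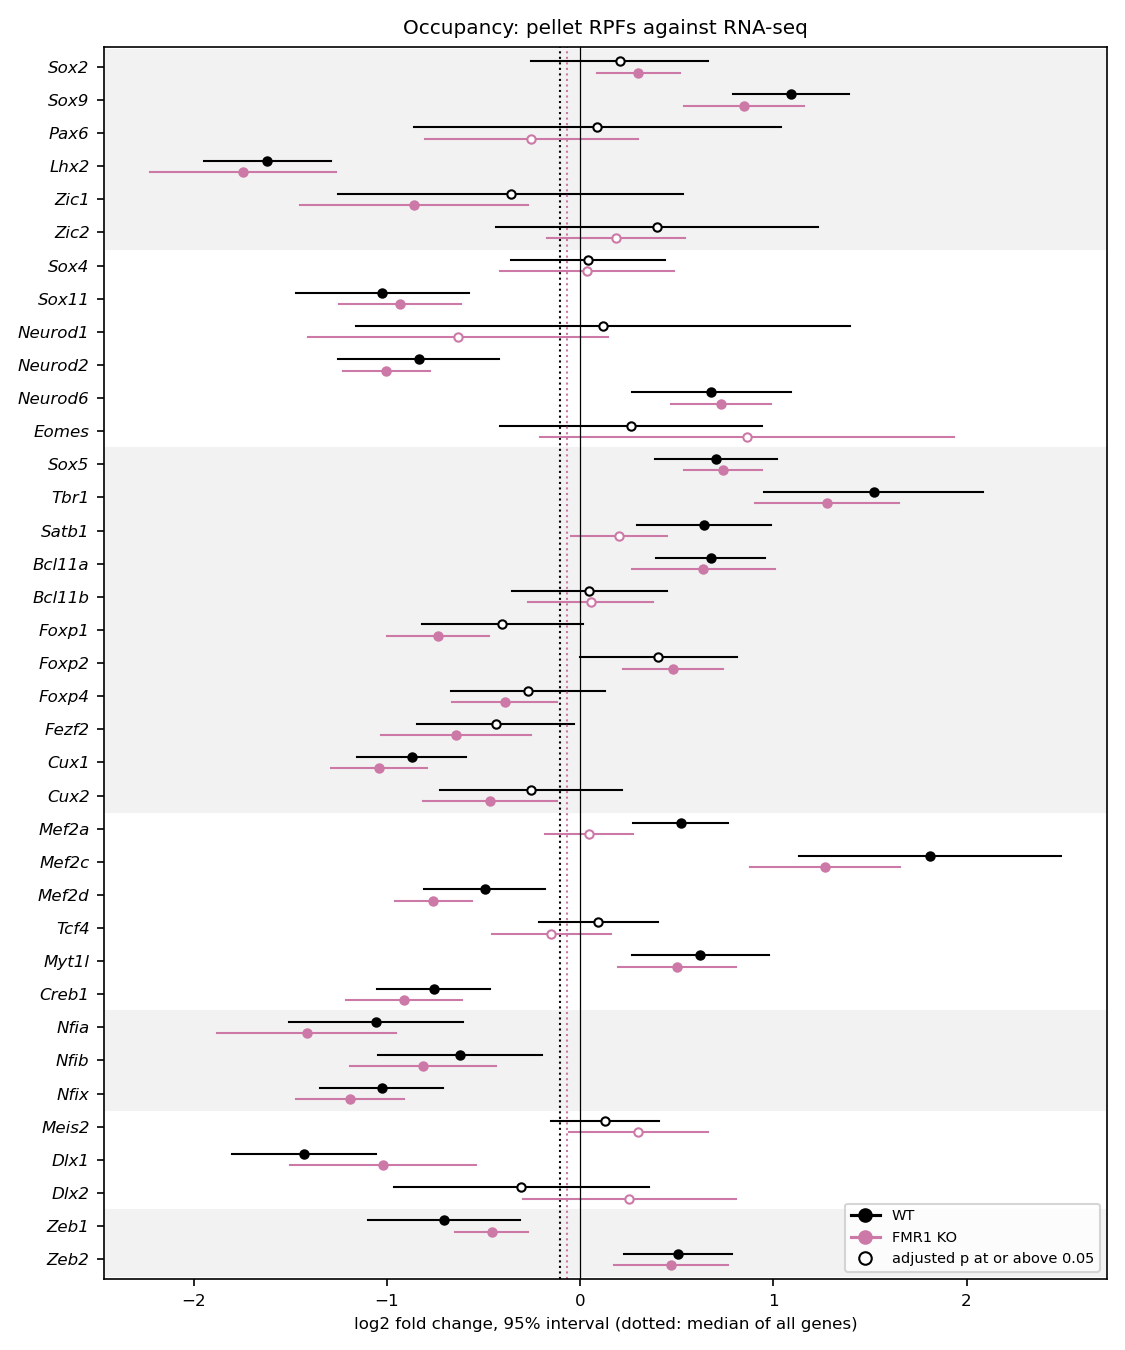
Occupancy (log2 of pellet RPFs over RNA-seq, with 95% intervals) of each gene in WT (black) and FMR1 KO (pink) of the standard preparation; filled points passed an adjusted p of 0.05 and dotted lines mark the median of all genes in each genotype. Mef2c (1.81 in WT) and Tbr1 (1.52) lie farthest to the right and Lhx2 (-1.62) and Dlx1 (-1.43) farthest to the left in WT.

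The mRNAs with lower occupancy were led by Lhx2 (chr2:38339281-38369733, plus strand), the LIM homeodomain factor that gives cortical progenitors their identity. Lhx2 measured 20.4, 22.5 and 18.4 normalised CPM in the WT pellet and 67.2, 68.0 and 53.6 in WT RNA-seq. It measured 15.9, 17.0 and 22.5 in the FMR1 KO pellet and 71.9, 47.5 and 66.6 in FMR1 KO RNA-seq. The groups did not overlap in either genotype, with log2 differences of -1.62 ± 0.14 and -1.75 ± 0.20 (edgeR adjusted p = 4.76e-05 and 0.000271). The direction turned in the low nuclease preparation, where its occupancy was 2.21 in WT and 1.65 in FMR1 KO. The FMR1 KO value rests on 1 pellet library, with 12.6, 11.6 and 150.2 normalised CPM in the pellet and 29.6, 14.2 and 11.5 in RNA-seq. Dlx1 (chr2:71528113-71533981, plus strand), a homeodomain factor of GABAergic interneurons, measured 29.8, 28.7 and 22.1 in the WT pellet and 78.4, 77.0 and 61.8 normalised CPM in WT RNA-seq. Its log2 difference was -1.43 ± 0.16 in WT and -1.02 ± 0.20 in FMR1 KO (edgeR adjusted p = 0.000161 and 0.00359). Dlx1 shares exon sequence with the antisense gene Dlx1as, and reads of the pair cannot be told apart where counting ignored strand. Its neighbour Dlx2, of the same pathway, had values of -0.30 and 0.26 with intervals that include 0.

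All 3 nuclear factor I genes fell in both genotypes of the standard preparation. Nfix measured 259, 289 and 253 normalised CPM in the WT pellet and 482, 554 and 597 in WT RNA-seq, and fell by 1.03 ± 0.14 on the log2 scale in WT. In FMR1 KO it measured 275, 269 and 264 in the pellet and 628, 586 and 630 in RNA-seq, and fell as well. Nfia fell by 1.06 ± 0.19 and 1.42 ± 0.20, and Nfib by 0.62 ± 0.18 and 0.81 ± 0.16. The edgeR adjusted p for these 3 genes ran from 0.000125 to 0.0182. Nfib turned in both genotypes of the low nuclease preparation, as given above, and Nfia measured 0.21 in FMR1 KO against the 1 RNA-seq library there that was not dominated by 10 genes. Nfia and Nfix share exon sequence with genes on the opposite strand.

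In several families, members differed in their calls. Sox11, which acts with Sox4 in newborn neurons, fell by 1.02 ± 0.19 in WT and 0.93 ± 0.13 in FMR1 KO, with 155, 169 and 103 normalised CPM in the WT pellet and 277, 289 and 302 in WT RNA-seq. Sox4 had values of 0.04 and 0.04, whose intervals include 0. Neurod2, which drives the maturation of cortical excitatory neurons, fell by 0.84 and 1.00 where Neurod6 rose. Mef2d fell by 0.49 and 0.76 where Mef2c rose, and Zeb1 fell by 0.71 and 0.46 where Zeb2 rose. Cux1 (-0.87 and -1.04), a factor of upper-layer neurons, and Creb1 (-0.76 and -0.91), the activity-dependent cAMP response factor, were lower in both genotypes. Creb1 turned in both genotypes of the low nuclease preparation. These differences between family members were not tested against each other.

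By role, the counts can be read beside the 31.1% of all genes that were higher and the 34.2% that were lower in WT, and 31.8% and 35.2% in FMR1 KO. In all, 4 of 11 factors of projection neuron identity rose and 1 fell in WT, and 4 rose and 5 fell in FMR1 KO. Of 6 maturation and broadly expressed neuronal factors, 3 rose and 2 fell in WT and 2 rose and 2 fell in FMR1 KO. Among 6 progenitor and patterning factors 1 rose and 1 fell in WT, and 2 rose and 2 fell in FMR1 KO. Of 6 factors of intermediate progenitors and newborn neurons, 1 rose and 2 fell in each genotype. WT and FMR1 KO share no library in this comparison. The genes that rose were 10 in each, of which 8 were in both lists (80.0% of each). All 11 that fell in WT were among the 16 that fell in FMR1 KO (68.8% of those), and Cux2, Fezf2, Foxp1, Foxp4 and Zic1 passed in FMR1 KO alone. Passing in 1 genotype does not show a difference between them, and the test of that difference is given below.

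A wider list of 100 other neurodevelopmental transcription factors gave 15 higher and 30 lower in WT (median log2 -0.16) and 19 higher and 39 lower in FMR1 KO (median -0.35), beside 31.1% and 34.2% of all genes in WT and 31.8% and 35.2% in FMR1 KO. Of 28 genes of the cytoskeleton, a class the study followed, 22 rose and 4 fell in each genotype, with medians of 1.16 and 0.94. None of the 37 factors is on the study's list of mRNAs with run-off resistant ribosomes. Of the study's lists of FMRP-bound mRNAs, the longer one (749 distinct symbols as read here, fewer than the study counts) holds 7 of the factors, Cux1, Cux2, Mef2d, Tcf4, Nfix, Myt1l and Zeb2, and the shorter one (262, also fewer) holds Mef2c and Myt1l. Of these 8 genes, Cux1, Mef2d and Nfix fell and Mef2c, Myt1l and Zeb2 rose in occupancy in both genotypes, while Tcf4 did not pass in either (0.09 and -0.15).

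Fraction 5/6 RPFs were compared with the same RNA-seq libraries, so its values are not independent of occupancy. In WT, 11 factors were higher and 8 lower, beside 28.3% and 27.6% of all genes (55.9% in either direction), and by library totals 0 were higher and 24 lower, beside 5.73% and 59.2% of all genes. In FMR1 KO, 13 were higher and 12 lower (29.7% and 33.1% of all genes, 62.8% in either direction), and 1 and 20 by library totals, beside 8.12% and 55.3% of all genes. With low nuclease 17 passed in WT, beside 57.2% of all genes, and 5 in FMR1 KO, beside 34.3%. Without the dominated WT RNA-seq library 23 passed in WT, where the share of all genes is not given here. The highest value was that of Eomes, 3.59 in WT, which did not pass, and 5.25 in FMR1 KO, which rested on 1 library and is described below. Mef2c was higher by 1.80 in WT and 1.30 in FMR1 KO, Tbr1 by 1.41 and 1.16, Sox9 by 1.35 and 1.08 and Neurod6 by 1.08 and 1.25. Lhx2 was lower at -1.34 and -1.31, Nfia at -0.86 and -1.10 and Nfix at -0.84 and -1.03. The WT count was 18 without the library labelled WT fraction 5/6 replicate 3, but 7 without replicate 1 and 8 without replicate 2 of both groups. Without that library Mef2c was higher by 1.72 and Sox9 by 1.30, Lhx2 was lower at -1.36, and these 3 genes and Tbr1 still passed. Lhx2 turned to 2.11 in WT and 3.53 in FMR1 KO in the low nuclease preparation, and to 1.81 and 2.84 without the dominated RNA-seq libraries. The FMR1 KO count was 16 without replicate 1. Shares of all genes under these left-out replicates are not given here.

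Enrichment, which sets the pellet directly against fraction 5/6, gave few calls among these genes. In standard WT 0 of 37 passed edgeR's test, with DESeq2 also at 0, beside 0.0228% of all genes by edgeR. Of the factors, 0 had an unadjusted edgeR p under 0.05, beside 820 of 13135 genes. The WT values of 36 genes, all but Eomes, lay between -0.40 and 0.22 on the log2 scale. For 34 of the 37, the 95% interval stayed within a log2 difference of 1, and Eomes, Pax6 and Dlx2 had wider intervals. Mef2c, the most abundant of the factors, measured 795, 697 and 815 normalised CPM in the WT pellet and 704, 688 and 728 in WT fraction 5/6, and these ranges overlap. The count was also 0 without the library labelled WT fraction 5/6 replicate 3. In the low nuclease preparation 3 factors were lower in the WT pellet than in fraction 5/6, namely Pax6 (-0.55), Sox2 (-0.45) and Creb1 (-0.38), beside 22.9% of all genes.

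In FMR1 KO, 11.5% of all genes passed (10.1% higher and 1.39% lower), and of the 37 factors only Creb1 did. Creb1 measured 24.9, 23.3 and 22.7 normalised CPM in the FMR1 KO pellet and 36.4, 30.2 and 32.8 in fraction 5/6, a log2 difference of -0.49 ± 0.11 (edgeR adjusted p = 0.0366). The call was lost when any replicate was left out, when FMR1 KO pellet replicate 2 alone was left out (log2 -0.51, edgeR adjusted p = 0.064), with the replicate block and by library totals, and DESeq2 called 2 genes. Neurod2 (-0.58), Foxp4 (-0.40) and Zic2 (-0.37) passed in the low nuclease preparation, beside 20% of all genes. In WT, Creb1 measured 22.1, 22.7 and 18.9 in the pellet and 27.4, 26.6 and 19.3 in fraction 5/6. The overlap rests on 19.3, the value of the library labelled replicate 3, and without it the WT pellet also lay below fraction 5/6.

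The comparison of the genotypes asks whether loss of FMRP alters these mRNAs. In RNA-seq 0 of 37 factors passed, beside 0.0735% of all genes. There 0 factors had an unadjusted edgeR p under 0.05, beside 423 of 16333 genes. In abundance 0 passed, beside 0.0152% of all genes, and 2 had an unadjusted edgeR p under 0.05, beside 703 of 13171 genes. In fraction 5/6, occupancy and enrichment 0 passed as well, beside 0%, 0.0669% and 0% of all genes. Each had 1 factor at an unadjusted edgeR p under 0.05, and the shares of all genes at that p are not given here. DESeq2 gave 0 in each except occupancy, where it called 1 (Mef2a). Fmr1 itself fell by 1.90 ± 0.10 in RNA-seq on the log2 scale, so the RNA-seq test could call a change of that size (edgeR adjusted p = 3.67e-05). Of the 5 comparisons, fraction 5/6 and enrichment use the library labelled WT fraction 5/6 replicate 3, and without it both counts were again 0.

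The intervals say how large a difference could have gone unseen. For abundance, the 95% interval lay within a log2 difference of 1 for 36 of 37 factors and within 0.5 for 24, and Dlx2, with 0.40 and an upper limit of 1.06, was the exception at 1. In RNA-seq it lay within 1 for 33 factors, all but Neurod1, Eomes, Pax6 and Zic1. For occupancy it did for 29.

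**Figure D3:**
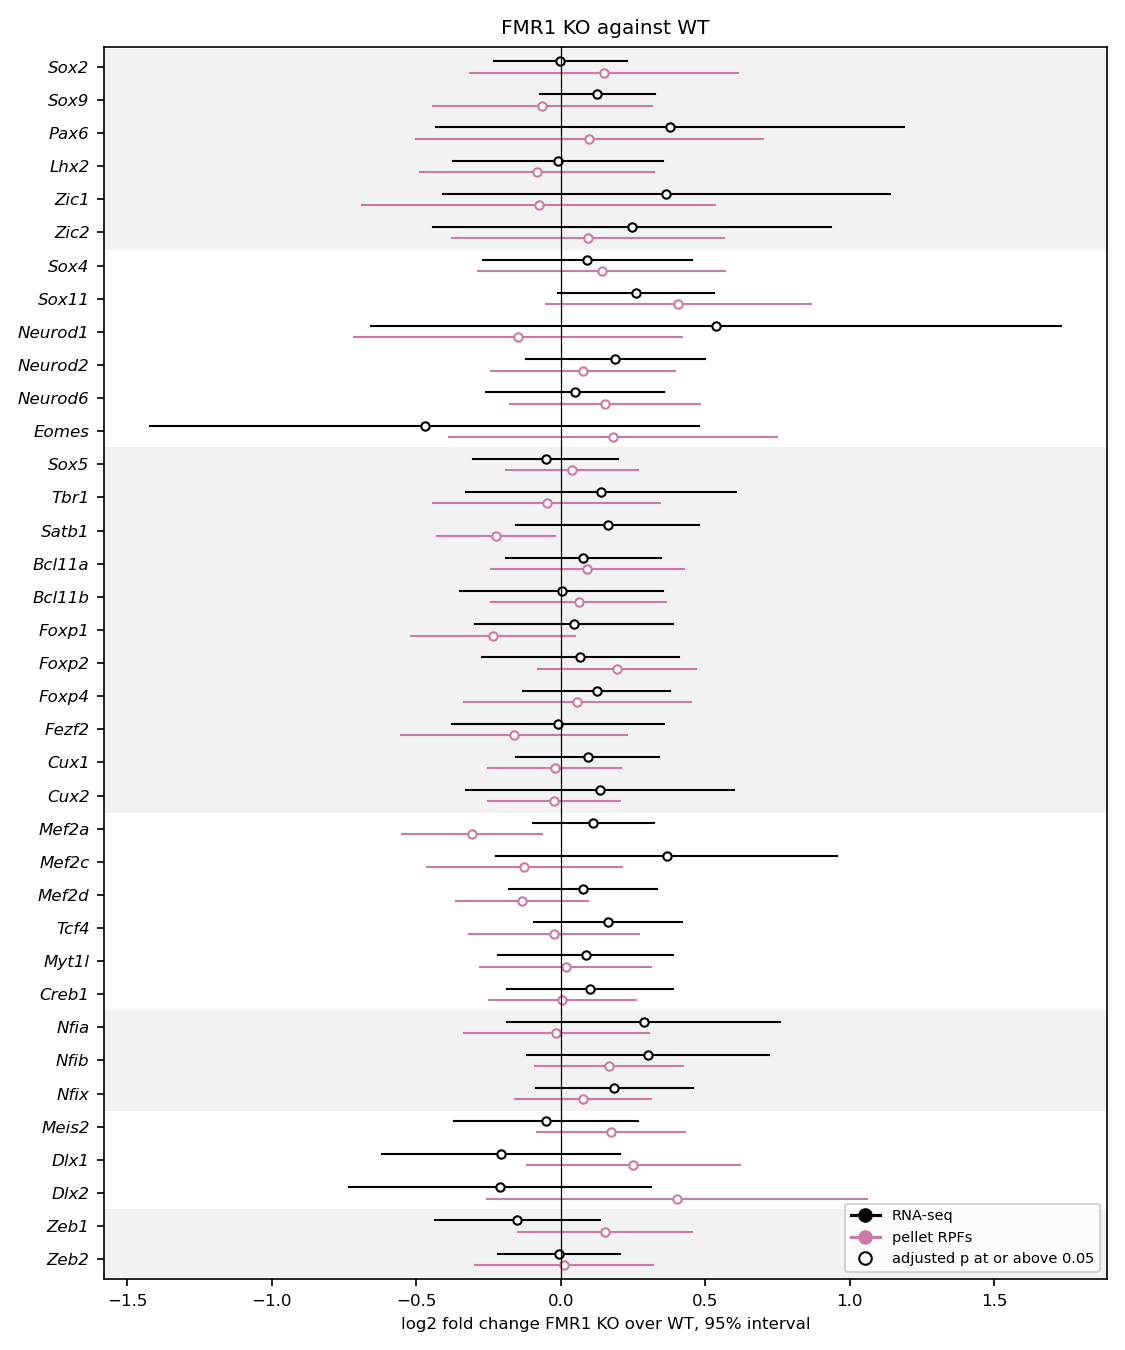
Difference between FMR1 KO and WT (log2, with 95% intervals) of each gene in RNA-seq (black) and in pellet RPFs (pink) of the standard preparation; open points did not pass an adjusted p of 0.05. All points are open, and the interval of Neurod1 in RNA-seq is the widest, at an upper limit of 1.73.

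Mef2a, a MADS box factor active in neurons and muscle, had the smallest p in abundance. It measured 74.2, 81.7 and 79.9 normalised CPM in the FMR1 KO pellet and 94.1, 91.4 and 106 in the WT pellet. The groups did not overlap, but the log2 difference of -0.31 ± 0.10 did not pass (edgeR adjusted p = 0.863). In RNA-seq its log2 difference was 0.11, and its difference in occupancy was -0.44 ± 0.13 (edgeR adjusted p = 0.737). DESeq2 gave -0.46 for the latter with an adjusted p of 0.043, and the edgeR adjusted p of the alternatives did not pass. Satb1 measured 98.3, 97.7 and 101.7 normalised CPM in the FMR1 KO pellet and 122, 114 and 112 in the WT pellet, a log2 difference of -0.22 ± 0.08 (edgeR adjusted p = 0.863). In fraction 5/6 the smallest p was that of Foxp2, at 60.3, 60.1 and 64.4 normalised CPM in FMR1 KO and 50.9, 47.2 and 51.0 in WT (log2 0.31 ± 0.11, edgeR adjusted p = 0.833). The last WT value is that of the library with Fmr1 at the knockout level, and without it the difference was 0.33 (edgeR adjusted p = 0.743). The sign turned in the low nuclease preparation for Foxp2 (-0.10) and for Mef2a in abundance (0.15).

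Libraries of the genotypes did not overlap for 2 of the 37 factors in RNA-seq and for 4 in abundance. The share of all genes without overlap is not given here. Sox11 was among these factors in both, without passing. Its RNA measured 465, 484 and 587 normalised CPM in FMR1 KO and 408, 425 and 449 in WT, a log2 difference of 0.26 ± 0.12 (edgeR adjusted p = 0.999), and -0.34 in the low nuclease preparation. Its pellet RPFs measured 132, 117 and 126 in FMR1 KO and 68.8 to 112 in WT, which do not overlap either. For the 7 factors on the longer list of FMRP-bound mRNAs, the differences in abundance ran from -0.13 (Mef2d) to 0.08 (Nfix), and in RNA-seq from -0.01 (Zeb2) to 0.19 (Nfix). Mef2c had 0.37 in RNA-seq and -0.13 in abundance, with intervals from -0.22 to 0.96 and from -0.46 to 0.21.

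The low nuclease preparation gave a second set of pellet and fraction 5/6 libraries. In the WT pellet 6 factors differed from the standard preparation, 2 higher in the standard and 4 lower, beside 15% and 24% of all genes (39% in either direction). Sox9 (0.49 ± 0.14) and Satb1 (0.40 ± 0.11) were higher in the standard preparation, and Lhx2, Nfib (-0.59 ± 0.12), Nfix (-0.53 ± 0.12) and Neurod2 (-0.42 ± 0.13) were lower. In the FMR1 KO pellet 5 differed (17% of all genes, 7.42% higher and 9.53% lower): Dlx2 (0.78), Eomes (0.73) and Sox2 (0.49) were higher and Foxp1 (-0.53) and Mef2d (-0.42) lower. In fraction 5/6, Sox9 alone differed in WT (0.57 ± 0.13, with 9.69% of all genes, 2.94% higher and 6.76% lower), and 3 factors in FMR1 KO (20.9% of all genes, 10% higher and 10.9% lower), namely Pax6 (0.56), Mef2d (-0.49) and Lhx2 (-3.94). These small counts changed with the libraries used. Leaving out a numbered replicate removes libraries for all genes alike, and the shares of all genes are not given here for it. The falls are therefore not read as particular to the factors. Without replicate 1, 2 or 3 the WT pellet gave 1, 3 or 5 factors and the FMR1 KO pellet 1, 0 or 0, and WT fraction 5/6 gave 1, 0 or 0 and FMR1 KO fraction 5/6 2, 0 or 0. With the library labelled WT fraction 5/6 replicate 3 alone left out, 2 factors passed in WT fraction 5/6, Sox9 among them (0.58, edgeR adjusted p = 0.0454), beside 13.5% of all genes. Of the 6 calls in the WT pellet, the 5 other than Lhx2 were each lost without at least 1 replicate.

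Lhx2 was unlike the others. Its RPF level in the standard preparation was 9.02 to 32.7 CPM in every one of the 12 libraries. In the low nuclease preparation it was 304, 224 and 200 CPM in the WT pellet, but 20.3, 20.3 and 267 CPM in the FMR1 KO pellet. In low nuclease fraction 5/6 it was 28.3, 260 and 458 CPM in WT and 41.2, 722 and 498 CPM in FMR1 KO. So 8 of 12 low nuclease RPF libraries lay at 200 CPM or above, and 4 lay at 20.3 to 41.2 CPM. Its RNA was not raised, at 67.3 to 106 CPM in the standard libraries and 108 CPM at most in the low nuclease ones. In the WT pellet the log2 difference between preparations was -3.61 ± 0.16 (edgeR adjusted p = 0.000264). In the FMR1 KO pellet, where the 3 low nuclease libraries disagree, it was -2.47 ± 1.06 (edgeR adjusted p = 0.139).

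Eomes and Cux2 showed the same kind of single high libraries. Eomes (chr9:118478212-118486132, plus strand), the T-box factor of intermediate progenitors, measured 14.4, 252 and 16.8 CPM in standard WT fraction 5/6 and 793, 17.8 and 30.3 CPM in standard FMR1 KO fraction 5/6. All 6 standard pellet libraries lay between 8.72 and 18.7 CPM, and the 12 low nuclease RPF libraries between 11.8 and 19.9 CPM. The high libraries held 2221 and 7688 counts, 8.19% and 16.9% of all counts of the 37 factors there. The fitted log2 value of Eomes in FMR1 KO fraction 5/6 against RNA-seq, 5.25 ± 1.62 (edgeR adjusted p = 0.0231), rested on 1 library: without replicate 1 it was 0.93 (edgeR adjusted p = 0.14). Cux2, a homeodomain factor of upper-layer neurons, measured 309, 79.3 and 95.2 CPM in low nuclease WT fraction 5/6 and 73.8 to 98.2 CPM in the other 9 low nuclease RPF libraries. Where on the mRNA these extra reads lie cannot be read from gene counts. The deposited peaks cover the standard libraries alone, where Eomes had a peak in 1 of 12 libraries.

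**Figure D4:**
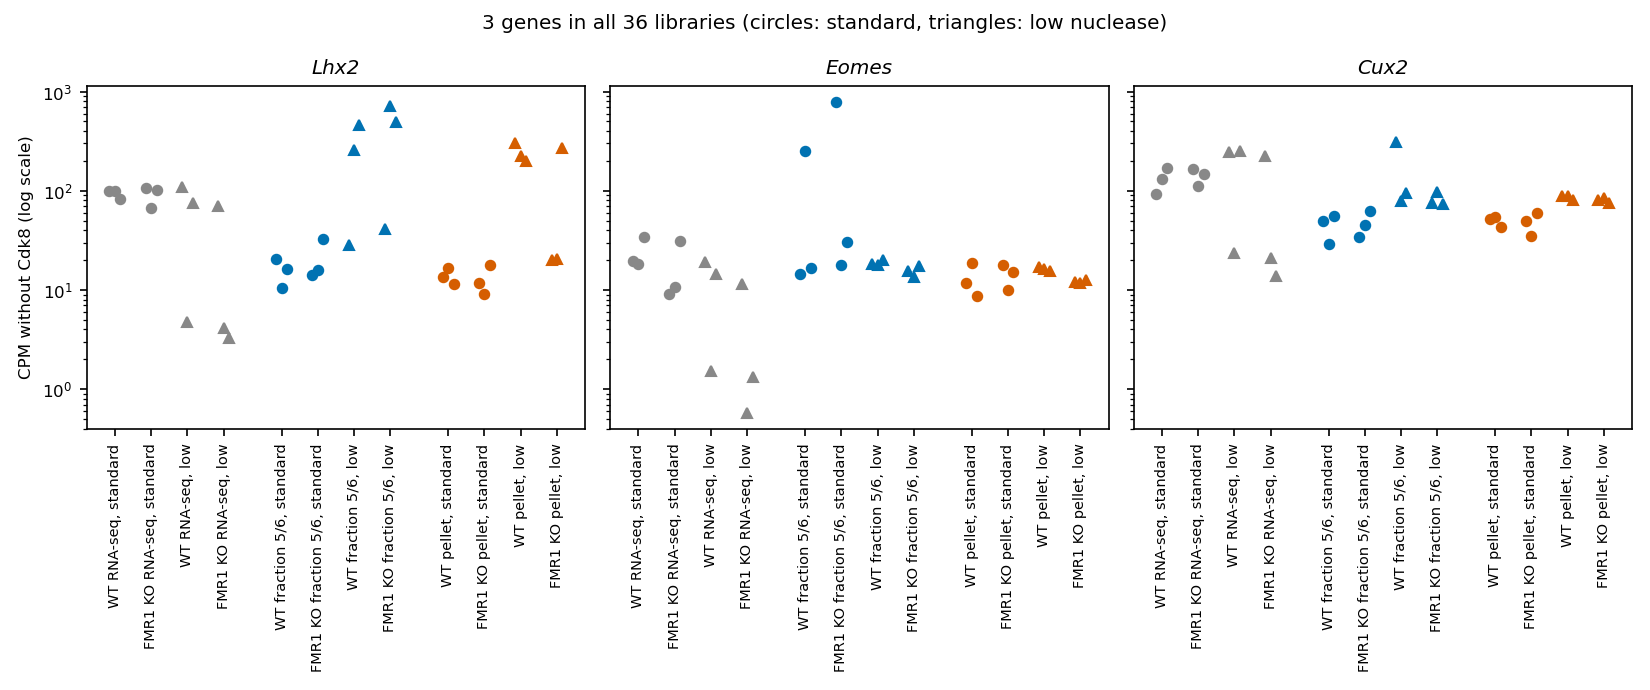
CPM without Cdk8 (log scale) of Lhx2, Eomes and Cux2 in all 36 libraries, with grey for RNA-seq, blue for fraction 5/6 and orange for the pellet; circles are the standard and triangles the low nuclease preparation. Lhx2 lies at 200 CPM or above in 8 of 12 low nuclease RPF libraries, Eomes at 252 and 793 CPM in 2 standard fraction 5/6 libraries and Cux2 at 309 CPM in 1 low nuclease library; the 3 lowest grey triangles of each gene are the RNA-seq libraries dominated by 10 genes.

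Peaks of RPF coverage were deposited per library for the 12 standard RPF libraries. The study keeps a peak only when it stands well above the mean of its transcript, but whether the deposited intervals had passed that threshold is not stated, and some have a height of 0, so the counts below are of intervals as deposited. They were set on the GENCODE M21 transcripts, and 32 of the 37 factors had a peak in some library. Creb1, Cux1, Foxp1, Foxp2 and Pax6 had none. In the pellet 29 had a peak and 19 had one in each of the 6 libraries. The number of peaks varied widely: Bcl11a had 16 to 30 in a pellet library, Sox11 21 to 24, Bcl11b 6 to 28, Myt1l 6 to 28 and Zic1 6 to 23. Mef2c, with the most RPFs, had 10 to 17, and Tcf4, next in RPFs, had 0 or 1.

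A peak was called recurrent when the middle of an interval lay within 6 nt in all 6 pellet libraries. Of these there were 2, in Nfib and Sox4, among 570 in all mRNAs. Of the 2611 mRNAs with a peak in every pellet library, 381 (14.6%) had a recurrent one, and of the 19 factors 2 did. The count depends on the tolerance, with 0 within 0 nt and 19 peaks in 11 factors within 12 nt, out of 1864 in 1050 mRNAs. It was 6, 18 or 13 when replicate 1, 2 or 3 of both genotypes was left out. Where peaks are dense, as on the Sox11 mRNA with at least 21, a match within 12 nt says little.

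The windows of 30 bases around 6 of these peaks are printed below, 5′ to 3′ on the coding strand, as GENCODE M21 transcripts give them. They show in capitals the codon at the peak's middle in 1 pellet library, from which the middles in the others lay up to 12 nt away, for the 2 recurrent sites, for the tallest of the wider set (Sox4, Sox11 and Sox2) and for a Sox9 site that, like that of Sox2, was matched in all 6 fraction 5/6 libraries.

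Nfib, codon 50, chr4:82498638-82498667 (minus strand): catgagaaacgaatgTCGaaggatgaagaa

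Sox4, codon 295, chr13:28952125-28952154 (minus strand): ctggggttgtacgaaGATggaggcccggga

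Sox4, codon 121, chr13:28952647-28952676 (minus strand): cgcctcaagcacatgGCTgactaccctgac

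Sox2, codon 122, chr3:34650765-34650794 (plus strand): aaaccaagacgctcATGaagaaggataagt

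Sox11, codon 63, chr12:27342207-27342236 (minus strand): tgtggtccaagatcGAGcgcaggaagatca

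Sox9, codon 245, chr11:112784705-112784734 (plus strand): ctcccaaaaccgacGTGcaagctggcaaag

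The Sox2 peak was the most repeated of these. It was the highest peak of its mRNA in 6 of 6 pellet libraries and was matched in 6 of 6 fraction 5/6 libraries, within 12 nt, so the codon itself is not fixed. The middles in the pellet lay 364 to 373 nt after the first base of the start codon, and the codon printed is that of 364. Its heights, which were not scaled between libraries and are therefore not compared, were 83, 78 and 33 in the WT pellet and 90, 55 and 63 in the FMR1 KO pellet. The peak at codon 121 of Sox4 stood at 174, 153 and 70 in WT and 118, 138 and 134 in FMR1 KO. That at codon 63 of Sox11 stood at 96, 52 and 37 in WT and 176, 80 and 93 in FMR1 KO. The Nfib peak was lower, at 24, 15 and 8 in WT and 22, 10 and 13 in FMR1 KO, but the highest on its mRNA in 4 of 6 pellet libraries. The Sox9 peak stood at 46, 31 and 26 in WT and 43, 40 and 36 in FMR1 KO.

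**Figure D5:**
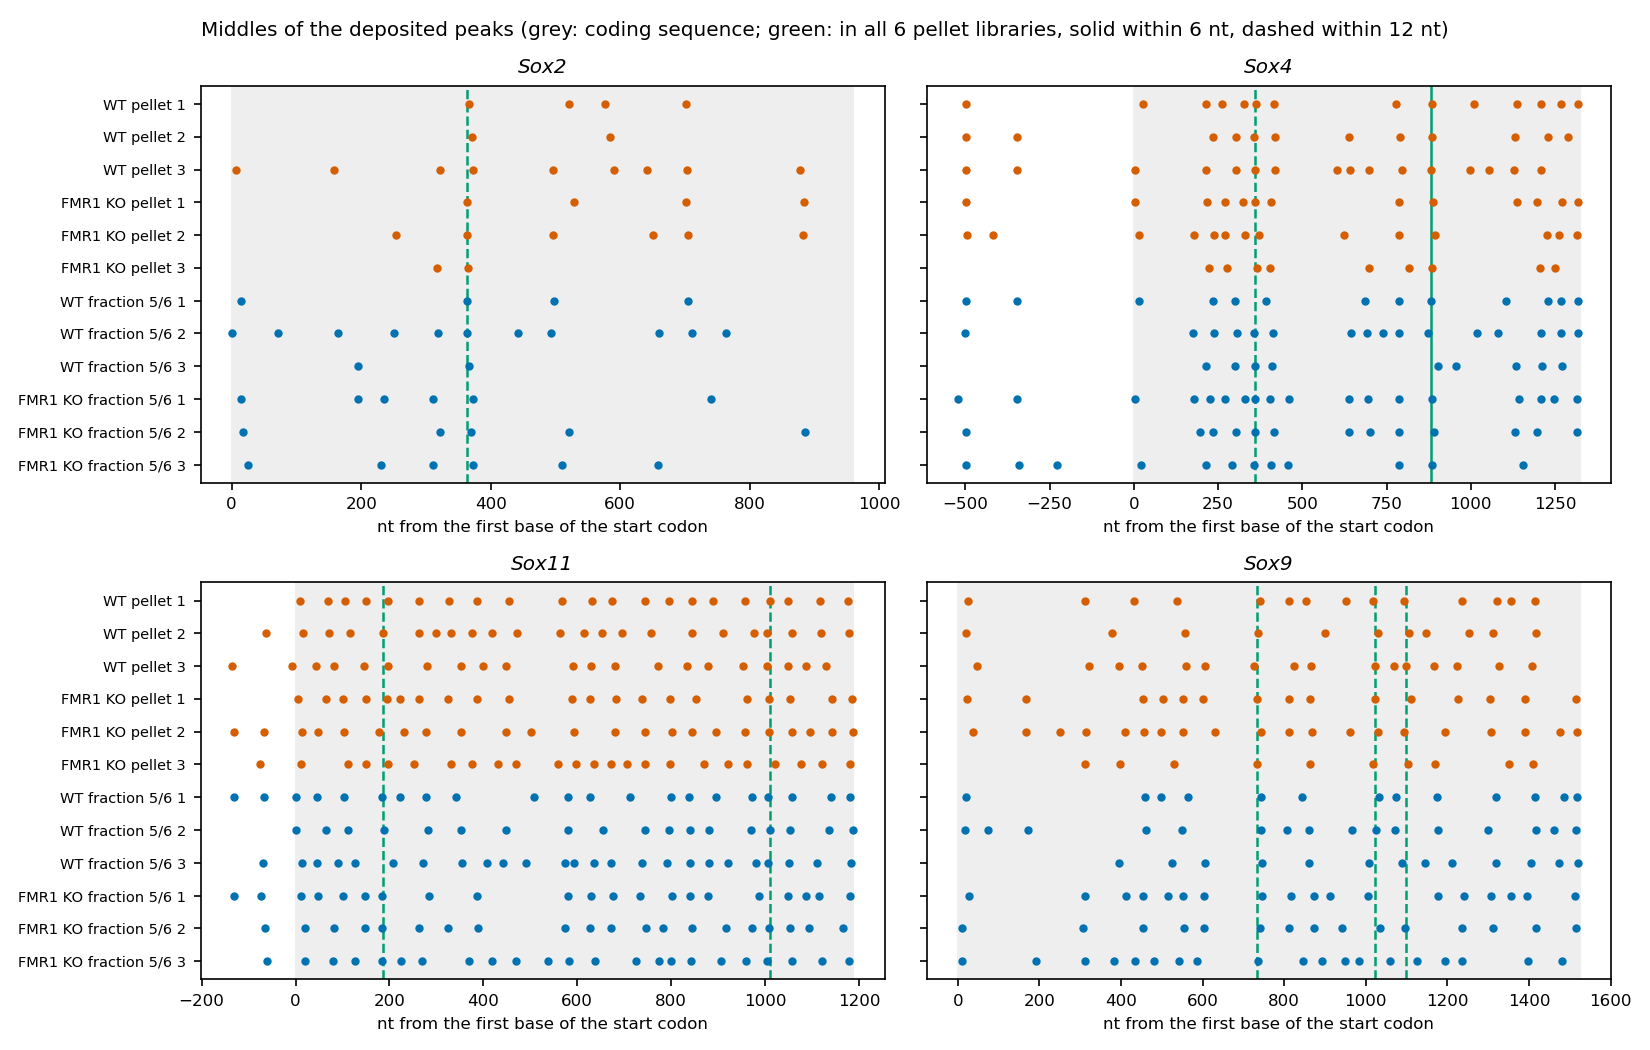
Middles of the deposited RPF peaks on the mRNAs of Sox2, Sox4, Sox11 and Sox9, in nt from the first base of the start codon, with 1 row per standard library (orange pellet, blue fraction 5/6) and grey shading over coding sequence; green lines mark peaks matched in all 6 pellet libraries, solid within 6 nt and dashed within 12 nt. Sox2 has few peaks and 1 shared by every library, whereas Sox11 has 21 to 24 peaks in every pellet library, most of them spread along its coding sequence.

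The study asked whether its peaks carry FMRP-related motifs, which it scored with a search tool and a cutoff around each peak's top. The exact-match search here differs, so its shares are not comparable with the study's. Windows of 30 nt around the 19 peaks were searched on the coding strand for exact matches. These were AGGA or TGGA (the WGGA motif) and ACTG or ACTT (the ACUK motif), and 11 windows (57.9%) held at least 1. Among all mRNAs the share was 53.2% of the windows at peaks recurrent within 12 nt. Over all windows along the whole of the 11 factor mRNAs it was 37.9%. That share includes untranslated regions, while 18 of the 19 peaks lay in coding sequence, so it is not a like background. These are descriptions of a small set. Acidic codons made up 11.1% of codons in the factor windows, 13.7% in those of all mRNAs and 10.4% of the coding sequences of the 11 factors. Of the 19 peaks, 18 lay in coding sequence and 1, in Zic1, upstream of it. Peaks found in all 3 pellet libraries of 1 genotype and in none of the other numbered 4 for WT and 5 for FMR1 KO among the factors, of 539 and 372 in all mRNAs, and no test of heights was made.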

How the data were processed

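RPFs of the pellet and of fraction 5/6 and RNA-seq of whole brain homogenate were analysed from 3 libraries per group, each a pool of 10 brains, so p-values measure the spread between pools. The authors made the deposited counts, whole numbers per gene without normalization, by trimming (cutadapt 2.10), removing ribosomal and other non-coding reads (Bowtie2 2.3.5), aligning to GRCm38 (STAR 2.7.8a), removing duplicates (Picard, SAMtools 1.19.2) and counting (featureCounts 2.2.0), per the labels' processing notes. Whether counting used strand is not given in the sources used here, and 17 of the 37 genes share exon sequence with another gene. The deposited peak heights are coverage signal that the authors called per library on Ensembl transcripts, not scaled between libraries. Peak intervals, not their tops, were deposited, so the middle was used, with an uncertainty of a base. No column of the count table was left unused.

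The members and gene lists were chosen with earlier results of these data known. Protein-coding genes (GENCODE M21) without Cdk8 were filtered with filterByExpr, normalized by TMM and tested with edgeR 4.0.16 (R 4.3.3, limma 3.58.1) quasi-likelihood tests, with Benjamini-Hochberg adjustment over all genes and a threshold of 0.05. The genotype differences in occupancy and enrichment are interactions in a model of 12 libraries. Normalised CPM is CPM on the TMM-adjusted library size. RPKM and coding length come from GENCODE M21. Single statistics are given for the 5 highest and 5 lowest called members with no overlap between the groups' libraries, or for the smallest p where none passed; other members are named by value. Alternatives were DESeq2 1.42.0, library size alone, no filter, a replicate block, leaving out each replicate or 1 library, and the low nuclease preparation. The scripts were tested on simulated data. Within groups, no pair of libraries was a duplicate, since the lowest chi-square per gene was 29.1. Libraries of different groups were not compared in this way. Peak intervals were handled in Python 3.11.15 (scipy 1.17.1, numpy 2.4.6, pandas 2.3.3), and figures were drawn with matplotlib 3.10.9. Sequences are printed for 6 of the 19 peaks, and the others are not reported here.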

Additional observations from a re-analysis of the deposited data

Results flagged for a closer look

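Some genes lay on opposite sides of RNA-seq in the preparations, with every pellet or fraction 5/6 library of 1 preparation below every RNA-seq library and every one of the other above it, on the scale of normalised CPM. These differences between preparations were not tested, and WT replicate 2 and FMR1 KO replicates 2 and 3 of the low nuclease RNA-seq are the libraries with most counts in 10 genes. In WT occupancy, the log2 ratio of the group means for Lhx2 was -1.62 in the standard and 2.22 in the low nuclease preparation. For Nfib in WT occupancy it was -0.62 and 0.62, and for Creb1 it was -0.76 and 0.66. For WT fraction 5/6 against RNA-seq, Nfib had -0.42 in the standard and 0.60 in the low nuclease preparation, and Creb1 had -0.45 and 1.05. In FMR1 KO fraction 5/6 against RNA-seq, Fezf2 had -0.48 and 0.69.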

How the results depend on the processing

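Of 549 alternative values for the genes given with single statistics in a comparison, 409 kept their direction and side of the threshold, 111 kept direction but no longer passed, 1 newly passed and 28 changed sign. With library size alone, the sign turned in WT occupancy for Sox9 (-0.048), Sox5 (-0.44) and Neurod6 (-0.46), in FMR1 KO occupancy for Sox9 (-0.23), Sox5 (-0.35) and Neurod6 (-0.38), and in WT fraction 5/6 against RNA-seq for Neurod6 (-0.16) and Sox5 (-0.20). It also turned between preparations for Sox9 (-0.017) and Satb1 (-0.12) in the WT pellet, Sox2 (-0.025) in the FMR1 KO pellet and Sox9 (-0.15) in WT fraction 5/6; this scaling keeps the shift of all genes. In the low nuclease preparation, Lhx2 turned to 2.21 and 1.65 in WT and FMR1 KO occupancy and to 2.11 and 3.53 in fraction 5/6 against RNA-seq, where 1.65 rests on 1 of 3 pellet libraries. Others there, among these genes, were Sox5 in FMR1 KO occupancy (-0.10), Sox11 in RNA-seq between genotypes (-0.34), Mef2a in abundance (0.15) and enrichment (0.10) between genotypes, and Foxp2 in fraction 5/6 (-0.10). Sox5 kept its standard sign without the dominated RNA-seq libraries. Without the 3 RNA-seq libraries dominated by 10 genes, an alternative chosen after seeing the data, Lhx2 gave 1.88, 0.98, 1.81 and 2.84 in that order, Nfia 0.21 in FMR1 KO occupancy and 0.30 in fraction 5/6, and Sox11 -0.17. That leaves 1 FMR1 KO RNA-seq library, assumed to vary like the other groups, so every FMR1 KO and genotype value there rests on it. The cause was not tested.

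Shares of all genes under most of the alternatives below are not given here, so a moved count is not read as particular to the factors. Counts of factors past the threshold moved by over 1.5 times in the following cases. In the low nuclease preparation they were 5 for FMR1 KO occupancy (26 in the standard), 5 for FMR1 KO fraction 5/6 against RNA-seq (25), 3 for WT enrichment (0) and 3 for FMR1 KO enrichment (1). The counts of 5 include the dominated FMR1 KO RNA-seq libraries. No count is given without them, since 1 RNA-seq library would remain. FMR1 KO enrichment gave 0 by library size, 2 by DESeq2, 0 with the replicate block, 0 without FMR1 KO pellet replicate 2 and 0 without any replicate in turn. DESeq2 gave 1 for occupancy between genotypes. Between preparations, library size gave 20, 9, 13 and 1 for the WT pellet, FMR1 KO pellet, WT fraction 5/6 and FMR1 KO fraction 5/6 (6, 5, 1 and 3), DESeq2 gave 10, 6 and 12 for the last 3, and no filter gave 0 for WT fraction 5/6, which had 2 without its standard replicate 3, an alternative also added after seeing the data. Leaving out a replicate gave 18 to 23 for WT occupancy, 18 to 24 for FMR1 KO occupancy, 7 to 18 for WT and 16 to 22 for FMR1 KO fraction 5/6 against RNA-seq, 0 for each test between genotypes and for WT enrichment, 1 to 5 and 0 to 1 for the WT and FMR1 KO pellets and 0 to 1 and 0 to 2 for fraction 5/6 between preparations.

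Replicate numbers did not pair the libraries, since no comparison had every same-numbered correlation over 0.1. With the replicate block the counts were 22 for WT occupancy, 26 for FMR1 KO occupancy, 15 and 22 for fraction 5/6 against RNA-seq, 5 for the WT pellet and 0 for the FMR1 KO pellet and for fraction 5/6 of WT and FMR1 KO between preparations. Recurrent peaks numbered 0 within 0 nt, 19 within 12 nt, 1 among peaks at or above the median height, 49 in at least 2 of 3 libraries of each genotype, and 6 to 18 without a replicate. With 3 pools a group, intervals between genotypes were about ± 0.32 (log2) in abundance and ± 0.48 in occupancy for the median factor.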
